A study of Homo sapiens with 8 samples.

Results

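The comparison described here sets DU145 cells transfected with miR-29b against DU145 cells transfected with a negative control miRNA (nc). Its members are 2 of the 8 arrays of the series, chosen by their labelled cell line and construct. The same line also received an siRNA against TET2 (siTET2) and a control siRNA (siControl), and the siControl array served as a second control. LNCaP cells, another prostate cancer line, received the same 4 constructs, and their miR-29b and nc arrays are used for a side-by-side reading. In every group RNA was taken 72 hours after transfection from cells grown in RPMI medium with 10% serum.

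DU145 is an established human prostate cancer line that grows without androgen, and LNCaP is an established line that depends on androgen receptor signalling. TET2 is an enzyme that oxidises 5-methylcytosine in DNA. Each group has 1 array, so no value below has a replicate, an error or a p-value. Nothing in the sources used here gives a culture, a day or a scan for an array. Of the markers of DU145 listed for the check, 13 of 15 exceeded the median of named genes in all 4 DU145 arrays, and 1 of 15 did so in each LNCaP array. LNCaP markers above the median numbered 1 of 10 in each DU145 array, and immune cell markers 1 of 14.

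MicroRNAs of the miR-29 family guide Argonaute proteins to matching sites, mostly in 3′ untranslated regions, and lower the stability and translation of the bound messages. The pairing of the seed, bases 2 to 8 of the microRNA, carries most of the recognition. The family is best known for repressing collagens and other genes of the extracellular matrix, and it is also known to target DNA methyltransferases, TET enzymes, MCL1 and other regulators of growth and survival.

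The mature sequences of the family are shown because the known targets are shared through the common seed, set in capitals. They come from RefSeq, build GRCh38.p14, and are written 5′ to 3′.
miR-29b-3p: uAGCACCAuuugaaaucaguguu
miR-29a-3p: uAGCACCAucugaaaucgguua
miR-29c-3p: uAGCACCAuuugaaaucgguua
The first has 23 bases and is encoded at 2 loci, MIR29B1 at chr7:130877467-130877489 and MIR29B2 at chr1:207802450-207802472, both on the minus strand. miR-29a-3p has 22 bases and lies at chr7:130876748-130876769 on the minus strand, and miR-29c-3p has 22 bases and lies at chr1:207801865-207801886 on the minus strand. With positions counted from 1 at the 5′ end and the base of miR-29b-3p first, miR-29c-3p differs by A18G, G21U and U22A. miR-29a-3p carries the same 3 substitutions and U10C. Among 2370 mature human names in the table, these 3 names, from 4 loci, share the seed. The label of the transfected construct reads miR-29b and does not state the arm or the precursor.

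The arrays gave no direct reading of the transfected RNA. The probe set of MIR29B1 was at 2.74 with miR-29b, against 2.68 with nc and 2.98 with siControl, and that of MIR29A was at 4.25 with miR-29b, against 4.50 with nc and 4.10 with siControl. Both lie far below the array's median over named genes, so they give no measure of how much miR-29b the cells held.

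Differences from nc were small. They were taken as log2 differences over 9395 genes above a level floor, meaning that at least 1 of the 2 arrays reached the median of its own named genes. The median difference was -0.04, and the differences ran from -0.79 to 0.76. At 1.5-fold, 6 genes were higher (0.0639% of those compared) and 5 lower (0.0532%). No gene reached 2-fold in either direction. When the DU145 arrays were quantile normalized again, or when a loess curve on level was taken off, the split became 11 higher and 2 lower. The 2 control arrays differed more widely. In siControl minus nc, 15 genes (0.16%) were 1.5-fold or more higher and 17 (0.181%) lower, and 4 (0.0427%) were 2-fold or more higher. The robust SD of the differences was 0.12 for miR-29b minus nc and 0.16 for siControl minus nc.

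The direction of small differences depended on level. Of the genes above the floor, 65.1% were lower and 34.8% higher with miR-29b than with nc, while 52.1% of the same genes were lower and 47.9% higher than with siControl. With the floor set on miR-29b and siControl instead, 52.6% were lower and 47.3% higher than siControl. With all genes ordered by level and cut into 10 groups of equal size, the median difference from nc was 0.12 in group 3 from the bottom, -0.06 in group 7 and -0.02 in group 10. After quantile normalization of the DU145 arrays, 49.4% of genes lay below nc. The median over all probe sets was 6.66 on the miR-29b array, against 6.59 on the nc array and 6.62 on the siControl array. A list of genes above the floor is therefore read below against a background in which 65.1% of genes lie under nc, 37.2% under both controls and 20% above both. After quantile normalization 26.8% of genes lay under both controls and 29.6% above both.

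**Figure D1:**
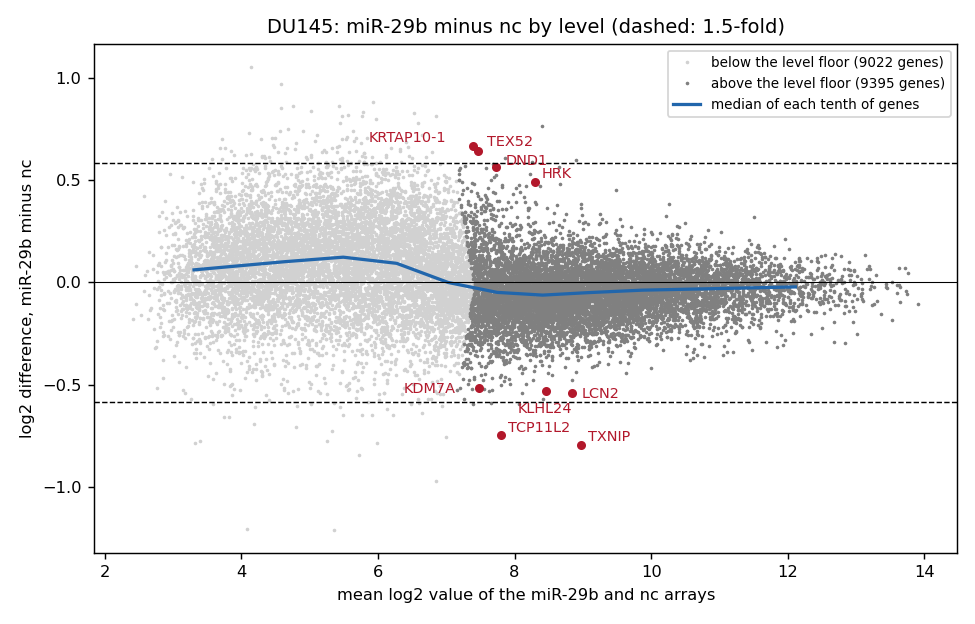
Log2 difference of the miR-29b array minus the nc array in DU145 (y axis) against the mean log2 value of the 2 arrays (x axis), 1 point per gene, with the 1.5-fold lines dashed and the median of each of 10 level groups as a line. No gene above the floor reaches a difference of 1 in either direction, and TXNIP (-0.79) and TCP11L2 (-0.75) lie lowest among the labelled genes.

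The lowest gene against nc was TXNIP, which encodes an arrestin-like protein that binds thioredoxin and restrains glucose uptake. It stood at 8.57 with miR-29b and 10.87 with siTET2, against 9.36 with nc and 9.51 with siControl. The miR-29b array was thus the lowest of the 4, at -0.79 (1.73-fold lower) from nc and -0.94 from siControl, while the controls lay 0.15 apart. The difference stayed at -0.74 after both further scalings. Each array holds the RNA of a whole culture, so less RNA per cell and fewer cells with the RNA cannot be told apart. In LNCaP the same gene differed by -0.01 between miR-29b and nc. ARRDC4, a related alpha-arrestin, chosen here after its values were seen, lay below the floor, at 6.23 with miR-29b against 6.52 with nc and 6.62 with siControl.

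TCP11L2 was the only other gene past 1.5-fold lower under those scalings. It was at 7.43 with miR-29b and 8.09 with siTET2, against 8.18 with nc and 8.11 with siControl, so that the other 3 arrays lay within a narrow range above the miR-29b array. The remaining genes past 1.5-fold lower were ZDHHC1, a palmitoyltransferase, at -0.59, PLEKHA3, a Golgi adaptor that binds phosphatidylinositol 4-phosphate, at -0.59, and the small nucleolar RNA SNORD116-6 at -0.60. Set against siControl these 3 differed by -0.37, -0.26 and -0.26. Among protein-coding genes, those at the edge of the threshold were PLEKHA3 at -0.59 inside and PLCD1, a phospholipase C, at -0.57 outside.

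Below that edge came genes of varied function. LCN2, a secreted protein that binds bacterial iron carriers and is induced by inflammation, was at 8.57 with miR-29b, against 9.11 with nc and 8.88 with siControl. HLA-DMB, which helps load peptides on class II molecules, was at 7.84 with miR-29b, against 8.38 with nc and 8.04 with siControl, and its 2 probe sets gave -0.54 and -0.55. ARG2, the mitochondrial arginase, was at 7.29 with miR-29b, against 7.81 with nc and 7.60 with siControl. In these 3 genes the miR-29b array was the lowest of the 4 DU145 arrays, but siControl stood between it and nc. For CYP27A1, the sterol 27-hydroxylase, almost all of the difference was with nc alone, at -0.52 from nc and -0.05 from siControl.

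Genes outside both controls were defined as those at least 0.3 log2 units (1.23-fold) below, or above, both nc and siControl. There were 48 below (0.511% of those compared) and 52 above (0.553%). By the same definition the siTET2 array had 621 below (6.57%) and 416 above (4.4%). After quantile normalization 25 genes lay below and 70 above both controls, and after loess 27 and 62. Of the 48 genes below, 46 also had their lowest value of the 4 DU145 arrays with miR-29b. The definition fixed this order against nc and siControl, so only the siTET2 array could be lower. Among them 44 were protein-coding, against 9093 of the 9395 genes above the floor. Zinc finger genes with a ZNF symbol, a family picked after values were seen, were 6 of them, against 250 of 9395. Of these 250, 157 lay below nc and 93 above, against 6115 and 3274 of the 9395. Their median was -0.04 from nc and -0.09 from siControl, against -0.04 and -0.01 over all genes. None of the 48 belonged to either list of known miR-29 targets. Of the 48, 26 had a mean level under 8 and 16 passed the floor through 1 of the 2 arrays only. KDM7A, SNAI2 and ZNF43, like ZDHHC1, PLEKHA3, PLCD1, ARG2 and CYP27A1 above, passed it through nc only, where they are high, so the filter in part fixed their direction. The same holds for DTX3L, LRIG1, NAV3 and SESN2, described further on.

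KDM7A, a histone demethylase of repressive lysine marks, was at 7.23 with miR-29b and 7.84 with siTET2, against 7.74 with nc and 8.11 with siControl. It was also lower in LNCaP, by -0.43. KLHL24, an adaptor of the cullin-3 ubiquitin ligase, was at 8.20 with miR-29b and 9.11 with siTET2, against 8.73 with nc and 8.64 with siControl. Here the 2 controls nearly coincided and the miR-29b and siTET2 arrays lay on opposite sides of them.

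SNAI2, a transcriptional repressor of E-cadherin, was at 7.02 with miR-29b and 7.97 with siTET2, against 7.43 with nc and 7.53 with siControl. PDK4, the kinase that inhibits pyruvate dehydrogenase, was at 7.64 with miR-29b and 8.77 with siTET2, against 8.04 with nc and 8.25 with siControl. In both genes, as in TXNIP and KLHL24, the miR-29b array was the lowest and the siTET2 array the highest of the 4. MOSPD1 was at 7.56 with miR-29b and 8.34 with siTET2, against 8.06 with nc and 7.98 with siControl. The zinc finger genes ZNF43 and ZNF268 differed from nc by -0.40 and -0.39, and from siControl by -0.71 and -0.48. SLC45A4, a solute carrier, differed by -0.40 from nc and -0.39 from siControl, and its other probe set by -0.67 and -0.58.

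Genes above both controls were mostly of low level. Of the 52, 38 had a mean level under 8, against 1782 of all 9395 genes, and 25 passed the floor through 1 of the 2 arrays only. KRTAP10-1, a hair keratin-associated protein, was at 7.73 with miR-29b and 7.59 with siTET2, against 7.06 with nc and 7.22 with siControl. TEX52, a testis-expressed gene, was at 7.78 with miR-29b and 7.67 with siTET2, against 7.14 with nc and 7.08 with siControl. DND1, an RNA-binding protein of germ cells, was at 8.01 with miR-29b and 7.64 with siTET2, against 7.45 with nc and 7.42 with siControl. In all 52 genes the miR-29b array was the highest of the 4, where by definition only the siTET2 array could have been higher. KRTAP10-1 and TEX52 passed the floor through the miR-29b array only, as did BHLHA9, FZD9 and GPR37L1 below.

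The other coding genes farthest above both controls were BHLHA9, KRTAP5-1, GFRA4, EME2, GPR37L1, FZD9 and SLC6A8, at 0.41 to 0.56 from nc. FZD9, a Wnt receptor, was at 7.47 with miR-29b, against 6.92 with nc and 7.08 with siControl. SLC6A8, the creatine transporter, was at 8.34 with miR-29b, against 7.93 with nc and 7.96 with siControl. BHLHA9, a transcription factor of limb development, had the most distant controls, at 7.65 with miR-29b against 7.17 with nc and 6.65 with siControl. The genes with a KRTAP symbol were counted as a family after values were seen, so their counts are a description only. Of these genes, 11 of 68 passed the floor, 1 of them through the miR-29b array only. Of the 11, 10 were above nc, against 34.8% of all genes, with a median difference of 0.39 from nc and 0.25 from siControl. KRTAP21-1, named after its values were seen, lay the other way below that floor, at 6.37 with miR-29b, against 7.34 with nc and 8.04 with siControl. Some of these genes are near copies of each other, so their probe sets may share signal.

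The genes past 1.5-fold higher than nc, beside KRTAP10-1 and TEX52, were LINC01783 at 0.76, LOC728024 at 0.61, LOC107987020 at 0.60 and CDRT15P3 at 0.59. LINC01783 is a long non-coding RNA and CDRT15P3 a transcribed pseudogene. These 6, with LINC01783 and the pseudogenes named after their values were seen, also passed 1.5-fold higher under both further scalings. Among protein-coding genes, TOPAZ1, a germ cell gene, stood just outside at 0.58, and LOC107987020 just inside at 0.60. TOPAZ1 passed the floor through the miR-29b array only, where it is high.

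**Figure D2:**
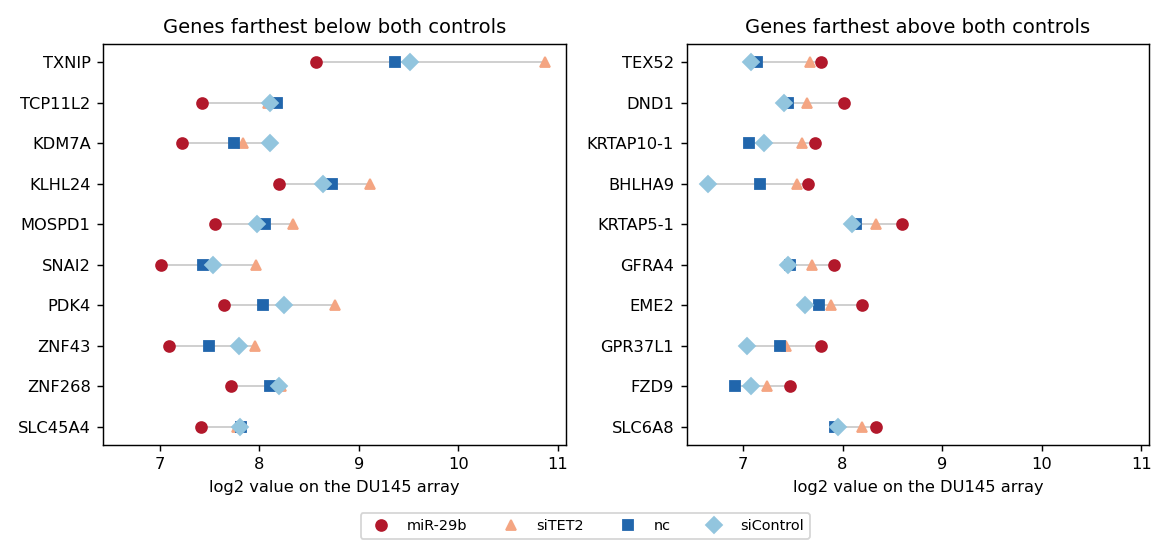
Log2 values on the 4 DU145 arrays (x axis) of the 10 coding genes farthest below both controls (left) and the 10 farthest above (right), with 1 symbol per array and a line over their range. The miR-29b array is the lowest of the 4 for each gene on the left, between 7.02 (SNAI2) and 8.57 (TXNIP), and the highest for each gene on the right. The selection of the genes fixed this order against nc and siControl, though not against siTET2.

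Known matrix targets of miR-29 were few above the floor in DU145. Of 45 listed genes, 44 were measured and 13 passed the floor, of which 10 were lower with miR-29b than with nc, or 76.9% against 65.1% of all genes. Lower than both controls were 7, or 53.8% against 37.2% of all genes, and 4 after quantile normalization and 5 after loess. Their median difference was -0.08 from nc and -0.05 from siControl, against -0.04 and -0.01 over all genes. None reached 1.5-fold, and none was 0.3 below both controls. With no floor the median of the measured members turned to 0.06.

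NID1, the basement membrane protein nidogen, was the lowest, at 8.93 with miR-29b and 9.16 with siTET2, against 9.34 with nc and 9.08 with siControl. LOXL2, an enzyme that crosslinks collagen, was at 10.46 with miR-29b and 10.70 with siTET2, against 10.72 with nc and 10.60 with siControl. Both were lowest with miR-29b, at -0.15 and -0.14 from the nearer control, which is no wider than the robust SD between the controls (0.16).

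Several matrix genes were low against nc only. MMP15, a membrane-type metalloprotease, was at 8.30 with miR-29b and 8.30 with siControl, against 8.62 with nc. HSPG2, the proteoglycan perlecan, differed by -0.27 from nc and 0.06 from siControl. SERPINH1, the collagen chaperone HSP47, differed by -0.26 from nc and 0.15 from siControl. For these 3 the miR-29b value was level with that of siControl or above it. LAMC1, a laminin chain, was at 10.75 with miR-29b, against 10.82 with nc and 10.80 with siControl, and TNC, tenascin C, at 9.88 with miR-29b, against 9.94 with nc and 10.05 with siControl.

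The 2 matrix members above both controls were the classical structural genes COL1A1 and ELN. COL1A1, a chain of type I collagen, was at 7.53 with miR-29b and 7.53 with siTET2, against 7.19 with nc and 7.34 with siControl. ELN, elastin, was at 7.41 with miR-29b and 7.17 with siTET2, against 7.04 with nc and 7.21 with siControl. Both passed the floor through the miR-29b array only, where they are high, so the filter in part fixed their direction.

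Targets outside the matrix were better represented. Of 67 listed genes, 60 were measured and 41 passed the floor, of which 27 were lower than nc, or 65.9% against 65.1% of all genes. By both controls, 18 were lower and 9 higher, or 43.9% and 22% against 37.2% and 20% of all genes. Their median was -0.08 from nc and -0.05 from siControl. None reached 1.5-fold in either direction.

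Among those low against both controls was TET3, a DNA demethylation enzyme related to TET2, at 7.15 with miR-29b and 7.63 with siTET2, against 7.42 with nc and 7.47 with siControl. CLDN1, a tight junction protein, was at 11.96 with miR-29b and 11.96 with siTET2, against 12.21 with nc and 12.24 with siControl. BACE1, the beta-secretase, was at 8.38 with miR-29b and 8.36 with siTET2, against 8.62 with nc and 8.59 with siControl. TET3 passed the floor through nc only. In these 3 genes the controls nearly coincided and the miR-29b array stood 0.21 to 0.32 below them. In CLDN1 and BACE1, though not in TET3, the siTET2 array was as low.

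NKIRAS2, an inhibitor of NF-kappaB signalling, was at 9.35 with miR-29b and 10.17 with siTET2, against 9.66 with nc and 9.49 with siControl. NAV3, a neuron navigator protein, differed by -0.19 from nc and -0.31 from siControl, and HBP1, a transcriptional repressor of cell cycle genes, by -0.18 and -0.15. ZFP36L1, a protein that binds AU-rich elements and hastens mRNA decay, differed by -0.16 and -0.15. Its relative ZFP36 differed by -0.11 and -0.17.

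A group of targets was low against nc alone. NREP was at 7.53 with miR-29b and 7.43 with siControl, against 7.87 with nc. GRN, the secreted growth factor progranulin, was at 11.78 with miR-29b and 11.69 with siControl, against 12.08 with nc. C1QTNF6 differed by -0.30 from nc and 0.22 from siControl, and INSIG1, the sterol sensor that retains SREBP in the endoplasmic reticulum, by -0.26 and 0.47. For each of these 4 the siControl array was lower than the miR-29b array.

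MCL1, an anti-apoptotic BCL2 relative and a widely cited target, was at 12.10 with miR-29b, against 12.12 with nc and 12.09 with siControl. DNMT3A, a de novo DNA methyltransferase, was at 7.75 with miR-29b, against 7.74 with nc and 7.71 with siControl. TRAF4, a signalling adaptor, was at 9.24 with miR-29b, against 9.30 with nc and 9.29 with siControl. SP1 and YY1, general transcription factors, differed from nc by -0.02 and 0.01. Of these 5, all lay within 0.06 of both control arrays.

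The largest difference from nc among the known targets above the floor was positive. HRK, a BH3-only protein that promotes apoptosis, was at 8.54 with miR-29b and 8.32 with siTET2, against 8.05 with nc and 8.16 with siControl. BBC3, the p53-induced BH3-only protein PUMA, was at 7.69 with miR-29b and 7.63 with siTET2, against 7.33 with nc and 7.39 with siControl. BBC3 passed the floor through the miR-29b array only, while HRK passed it on both. Among the members of the 2 target lists above the floor, HRK was the only one that lay 0.3 or more outside both controls.

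The enzymes of DNA methylation and demethylation showed no common direction. Of 24 listed, 18 passed the floor, 9 below nc and 9 above, with a median of -0.02 from nc and 0.06 from siControl. The first of these medians turned to 0.02 after quantile normalization or loess. TET2 was at 7.79 with miR-29b and 6.60 with siTET2, against 7.96 with nc and 7.85 with siControl. It was the gene the siRNA was aimed at, and the difference from siControl with miR-29b was -0.06 by this probe set and -0.05 by its other one. DNMT1, the maintenance methyltransferase, differed by 0.01 from nc and 0.20 from siControl. TET1 at 7.13 and DNMT3B at 7.24 with miR-29b lay below the floor.

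**Figure D3:**
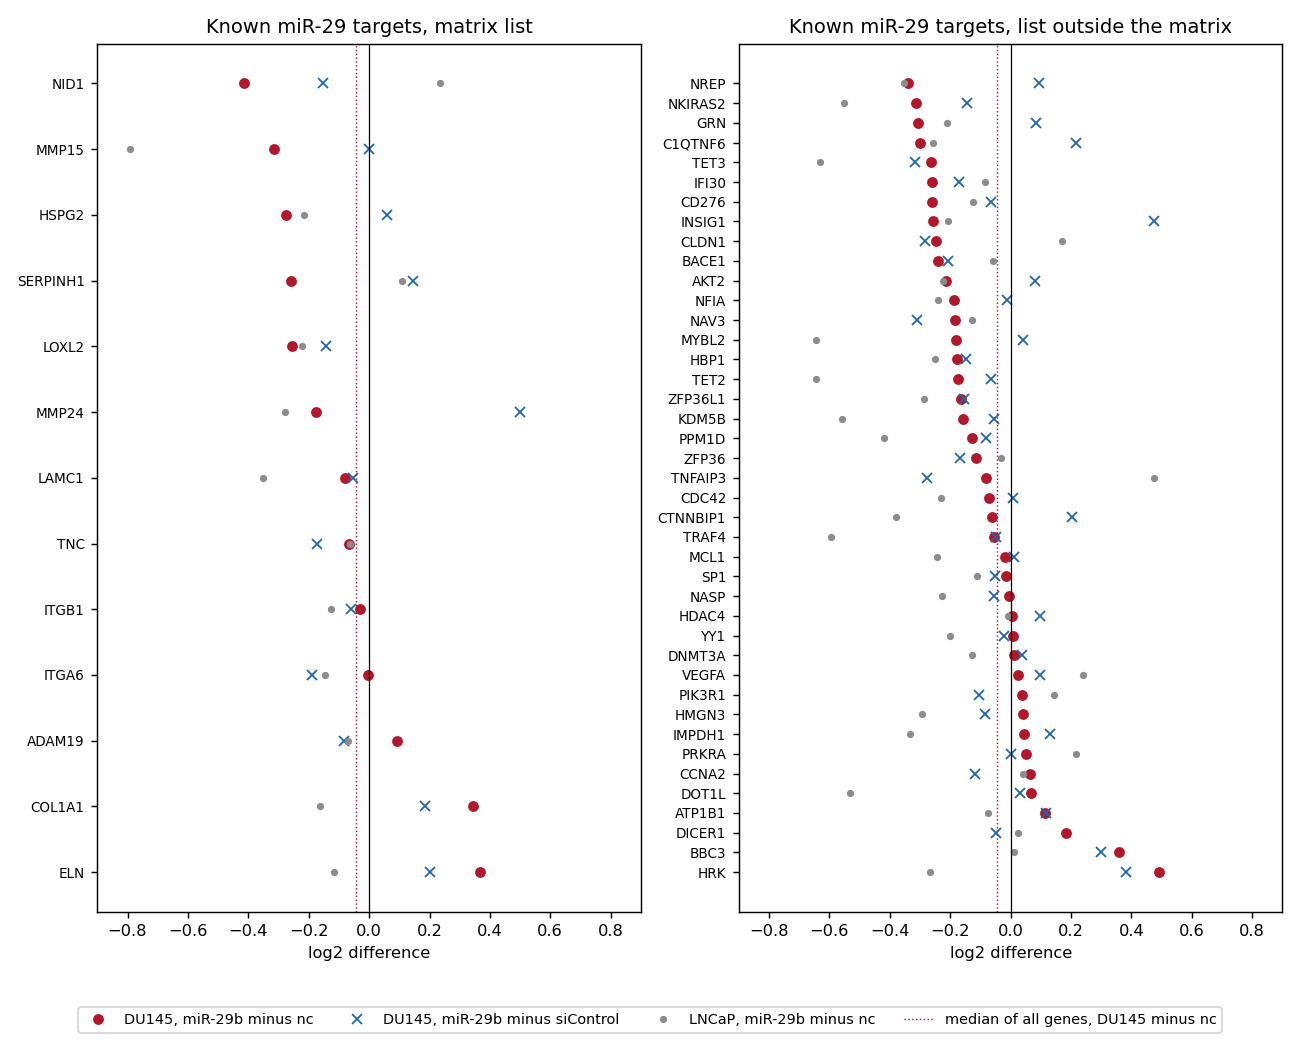
Log2 differences (x axis) of the 13 matrix targets (left) and the 41 targets outside the matrix (right) that passed the floor, 1 row per gene, ordered by the DU145 difference from nc. Filled circles are DU145 miR-29b minus nc, crosses the same array minus siControl, grey points LNCaP miR-29b minus nc, and the dotted line the median of all genes in DU145. The DU145 differences run from -0.41 (NID1) to 0.49 (HRK).

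Set beside LNCaP, the medians of the known targets lay nearer to nc in DU145, while single members differed in both ways. Over the 41 targets outside the matrix that passed the DU145 floor, the median was -0.08 in DU145 and -0.22 in LNCaP, with 27 below nc in DU145 and 33 in LNCaP. Over the 13 matrix targets the medians were -0.08 and -0.15, with 10 and 11 below nc. Of these, NID1, HSPG2, SERPINH1, LOXL2, MMP24, ADAM19 and TNC lay below the same floor set on the LNCaP arrays. Over the 7 matrix members above the LNCaP floor the median there was -0.16, with all 7 below nc. All genes above the DU145 floor had medians of -0.04 and 0.02. TRAF4 differed by -0.05 in DU145 and -0.60 in LNCaP, KDM5B, a histone H3 lysine 4 demethylase, by -0.16 and -0.56, MYBL2, a cell cycle transcription factor, by -0.18 and -0.64, and DOT1L, a histone H3 lysine 79 methyltransferase, by 0.07 and -0.53. Other members lay farther from nc in DU145, among them HRK at 0.49 and -0.27 and BBC3 at 0.36 and 0.01. GRN, at -0.31 and -0.21, and BACE1, at -0.24 and -0.06, did so on the lower side. The lines share no array, and with 1 array per group the difference between lines was not tested.

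Interferon-stimulated genes above the floor were mostly lowest with miR-29b. Of 52 listed antiviral and antigen presentation genes, 49 were measured and 18 passed the floor. Of these, 16 were lower than nc, the same 16 were lower than both controls, and none was above both. All genes above the floor gave 65.1% below nc and 37.2% below both. In 16 of the 18 the miR-29b array was the lowest of the 4, as it was in 25.7% of all genes above the floor. The median difference was -0.12 from nc and -0.21 from siControl, and siControl itself lay 0.13 above nc. After quantile normalization or loess 13 lay below both controls, with medians of -0.07 and -0.08 from nc. The 31 members below the floor were divided, 16 below nc and 15 above. Over all 49 measured, 32 were below nc and the same 32 below both controls, with a median of -0.09 from nc.

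IFI6, an interferon-induced mitochondrial protein, was at 8.65 with miR-29b and 10.01 with siTET2, against 8.94 with nc and 9.73 with siControl. The arrays of the siRNA transfections were the higher ones for this gene. IRF9, the DNA-binding subunit of the interferon-activated factor ISGF3, differed by -0.27 from nc and -0.70 from siControl. DTX3L, a ubiquitin ligase, was at 7.31 with miR-29b and 7.90 with siTET2, against 7.61 with nc and 7.78 with siControl. IFI35 differed by -0.36 from nc and -0.02 from siControl, and IFITM2, a restriction factor of viral entry, by -0.31 and -0.03.

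Among members named after their values were seen, the enzyme OAS3, which makes the 2-5A activator of RNase L, differed by -0.18 from nc and -0.45 from siControl. EIF2AK2, the kinase PKR that senses double-stranded RNA, differed by -0.12 and -0.30, and HERC5, the ligase for ISG15, by -0.13 and -0.48. RIGI, a sensor of viral RNA, was level with nc at 0.00 and stood at -0.57 from siControl. PARP14 was the other member not below nc, at 0.04 from nc and -0.05 from siControl. Below the floor, IFIT3, ISG15, OASL and MX1, also antiviral genes, differed by 0.37, 0.18, 0.16 and 0.04 from nc, and by -0.97, 0.04, -0.97 and -0.59 from siControl. In LNCaP all 18 genes above the DU145 floor were higher with miR-29b than with nc, with a median of 0.39. IFI6 differed by 1.17 there and DTX3L by 1.13.

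**Figure D4:**
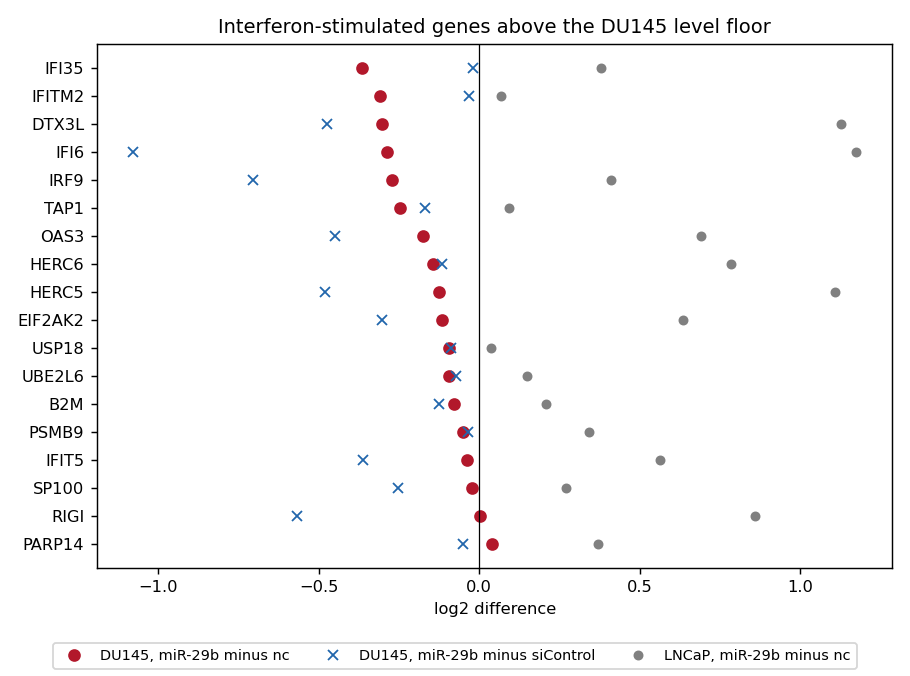
Log2 differences (x axis) of the 18 interferon-stimulated genes above the DU145 floor, 1 row per gene. Filled circles are DU145 miR-29b minus nc, crosses DU145 miR-29b minus siControl and grey points LNCaP miR-29b minus nc. The circles lie between -0.36 and 0.04, the crosses reach -1.08 (IFI6), and the grey points are all positive.

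Of the chemokines, interleukins and feedback regulators of NF-kappaB, 17 of 32 passed the floor, 12 below nc and 10 below both controls. By share these were 70.6% and 58.8%, against 65.1% and 37.2% of all genes. The median was -0.08 from nc and -0.14 from siControl. CCL20, a chemokine for dendritic and T cells, was at 8.61 with miR-29b and 8.97 with siTET2, against 9.08 with nc and 8.86 with siControl. IL24, a cytokine of the IL-10 family, was at 9.22 with miR-29b and 10.40 with siTET2, against 9.58 with nc and 9.95 with siControl. CSF3, the granulocyte growth factor, lay the other way, at 7.81 with miR-29b and 7.46 with siTET2, against 7.46 with nc and 7.40 with siControl.

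The controls themselves were far apart for several inducible genes, which were chosen here after their values were seen. MMP1, the interstitial collagenase, differed by -1.34 from siControl and -0.04 from nc. IFIT1, an antiviral RNA-binding protein below the floor of the nc comparison, differed by -1.32 and -0.24, and CXCL8, the neutrophil chemokine interleukin 8, by -0.87 and 0.22. With the floor set on miR-29b and siControl, at 1.5-fold against siControl 28 genes were lower (0.298%) and 6 higher (0.0639%), and at 2-fold 4 were lower (0.0426%) and 1 higher (0.0106%). For MMP1 and CXCL8 the distance lay between the controls, and the miR-29b array was close to or above nc.

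Genes of cell adhesion and of the epithelial and mesenchymal states were both slightly below nc. Of the epithelial markers, 18 of the 20 above the floor were lower than nc, with a median of -0.16, and 11 were lower than both controls. Of the mesenchymal markers and TGF-beta targets, 17 of 19 were lower than nc, also with a median of -0.16, and 13 were lower than both controls. All genes gave 65.1% below nc and 37.2% below both. After quantile normalization 16 epithelial and 13 mesenchymal genes lay below nc, and 10 of each below both. After loess these were 17 and 13 below nc, and 10 and 9 below both. With no floor the medians from nc were -0.14 and -0.04. Against siControl the medians were -0.09 and -0.03. The markers of DU145 itself also lay below nc, 12 of 13 of them, with a median of -0.11, while against siControl their median was 0.03. Their part in these results was not tested.

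CDH3, the P-cadherin, was at 10.49 with miR-29b and 10.46 with siTET2, against 10.85 with nc and 10.61 with siControl. CLDN4, a tight junction claudin, was at 7.56 with miR-29b and 7.91 with siTET2, against 7.90 with nc and 7.67 with siControl. JUP, the junction protein plakoglobin, was at 9.78 with miR-29b and 9.88 with siTET2, against 10.20 with nc and 9.88 with siControl. In each of these 3 siControl stood nearer to miR-29b than nc did. EPCAM, an epithelial adhesion molecule, ran the other way against nc, at 10.45 with miR-29b and 10.19 with siTET2, against 10.07 with nc and 10.60 with siControl, and its value lay between the controls.

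FN1, fibronectin, was at 7.35 with miR-29b and 7.38 with siTET2, against 7.67 with nc and 7.70 with siControl. CCN1, a matricellular protein induced by YAP and TGF-beta signalling, was at 10.92 with miR-29b and 11.37 with siTET2, against 11.22 with nc and 11.08 with siControl. FN1 and SNAI2 passed the floor through nc only. FN1 was about 0.3 below 2 controls that nearly coincided, as SNAI2 was by a wider margin. Of the integrin subunits, 9 of 10 were below nc and 6 below both controls, with a median of -0.09 from nc and -0.05 from siControl. That is 90% and 60%, against 65.1% and 37.2% of all genes. After quantile normalization 3 and after loess 4 of these 10 lay below both, or 30% and 40%, against 26.8% and 27.7% of all genes. Over all 23 subunits measured, with no floor, 12 were below nc, with a median of -0.00. Of the matrix proteases and the urokinase system, 14 of 15 were below nc (93.3%) and 11 below both (73.3%), with medians of -0.11 and -0.08. The count below both was 6 of 15 after quantile normalization and 7 after loess, or 40% and 46.7%, against 26.8% and 27.7% of all genes.

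Genes of sterol and fatty acid synthesis lay between the controls. Of 19 genes of cholesterol synthesis and uptake above the floor, 17 were lower than nc and 1 was lower than both controls. That is 89.5% and 5.3%, against 65.1% and 37.2% of all genes. Their median was -0.16 from nc and 0.22 from siControl, so the direction turned with the control. SREBF2, the transcription factor that drives the pathway, was at 9.49 with miR-29b and 9.30 with siTET2, against 9.83 with nc and 9.26 with siControl. DHCR7, which makes cholesterol from 7-dehydrocholesterol, was at 10.76 with miR-29b and 10.26 with siTET2, against 11.02 with nc and 10.36 with siControl.

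The fatty acid genes showed the same order of arrays. Their median was -0.10 from nc and 0.13 from siControl over 20 genes, 18 of them below nc and 3 below both controls. That is 90% and 15%, against 65.1% and 37.2% of all genes. SCD, the desaturase that makes oleic acid, was at 11.69 with miR-29b and 9.41 with siTET2, against 12.005 with nc and 11.08 with siControl. FADS2, a desaturase of polyunsaturated fatty acids, was at 10.97 with miR-29b and 10.31 with siTET2, against 11.21 with nc and 10.53 with siControl.

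Cell cycle genes differed little from nc. Over 43 S phase genes the median was 0.01 from nc and 0.04 from siControl, with 25 above nc and 18 above both controls. Over 44 G2/M genes it was 0.02 from nc and 0.02 from siControl, with 27 above nc and 13 above both, or 19 and 20 above both after quantile normalization and loess. By share, 41.9% and 29.5% lay above both controls, against 20% of all genes. CCNE2, a cyclin of S phase entry, was at 9.38 with miR-29b, against 9.10 with nc and 9.44 with siControl. RFC4, a clamp loader subunit, was at 11.89 with miR-29b, against 11.72 with nc and 11.74 with siControl. NDC80 and NUF2, which form the kinetochore complex that holds microtubules, differed from nc by 0.21 and 0.23 and from siControl by 0.05 and -0.07. The mitotic kinase PLK1 differed by -0.17 from nc and 0.11 from siControl.

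In the BCL2 family 7 of 14 genes were above nc and 7 below, with a median of -0.00 from nc, which turned to 0.03 after quantile normalization, and 0.05 from siControl. Beside HRK and BBC3, described above, BAX, a pore-forming protein of the mitochondrial membrane, was at 9.10 with miR-29b, against 8.94 with nc and 8.97 with siControl. Its relative BAK1 lay the other way, at 8.74 with miR-29b, against 9.10 with nc and 8.85 with siControl. Over 23 p53 target genes, 18 were below nc and 15 below both controls, with a median of -0.09 from nc and -0.08 from siControl. By share these were 78.3% and 65.2%, against 65.1% and 37.2% of all genes. After each of the further scalings 13 were below nc and 11 below both, or 56.5% and 47.8%. All genes gave 49.4% and 26.8% after quantile normalization, and 49.6% and 27.7% after loess. SESN2, a stress-induced inhibitor of mTORC1, was at 7.23 with miR-29b and 8.73 with siTET2, against 7.56 with nc and 7.49 with siControl.

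Genes of hypoxia and glycolysis had a median of 0.04 from nc and 0.07 from siControl over 27 genes, 14 of them above both controls. That is 51.9%, against 20% of all genes. After quantile normalization and loess 17 and 16 were above both, or 63% and 59.3%, against 29.6% and 28.9% of all genes. ADM, adrenomedullin, was at 8.11 with miR-29b, against 7.95 with nc and 8.01 with siControl. EGLN1, the oxygen-sensing prolyl hydroxylase, differed by 0.13 from both. NDRG1, a gene induced by hypoxia, lay lowest in the list, at 9.84 with miR-29b against 10.10 with nc and 9.98 with siControl.

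Among chromatin genes, 15 of 19 histone lysine demethylases were below nc and 13 below both controls, with a median of -0.11 from nc and -0.04 from siControl. That is 78.9% and 68.4%, against 65.1% and 37.2% of all genes. After each of the further scalings 8 were below both, or 42.1%. All genes gave 26.8% after quantile normalization and 27.7% after loess. KDM7A stood apart from the next, KDM4A at -0.26, KDM5C at -0.24 and KDM6B at -0.19 from nc. Clustered histone genes had 27 of 32 members below nc (84.4%) but 11 below both controls (34.4%, against 37.2% of all genes). After quantile normalization 7 lay below both, or 21.9%, and after loess 9, or 28.1%. Their median was -0.09 from nc and 0.06 from siControl. H2BC4 was at 8.97 with miR-29b, against 9.37 with nc and 9.20 with siControl. Clustered histone genes are near copies of each other, so their probe sets may share signal.

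Of the stress lists, 17 of 24 chaperone and degradation genes of the endoplasmic reticulum were below both controls, or 70.8% against 37.2% of all genes. After each of the further scalings 10 were, or 41.7%. Their median was -0.04 from nc, which turned to 0.02 after both further scalings, and -0.09 from siControl. DNAJB9, a chaperone cofactor, was at 7.73 with miR-29b and 7.83 with siTET2, against 7.87 with nc and 8.29 with siControl. The median of the 28 ATF4 target genes was -0.05 from nc and -0.05 from siControl, and the first turned to 0.00 after both scalings. TRIB3, a pseudokinase induced by amino acid stress, differed by -0.24 from nc and -0.42 from siControl.

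Signalling genes gave a few single members. LRIG1, a feedback inhibitor of EGF receptors, was at 7.07 with miR-29b and 7.07 with siControl, against 7.57 with nc. DUSP5, a nuclear phosphatase of ERK, was at 10.44 with miR-29b and 11.28 with siTET2, against 10.78 with nc and 10.68 with siControl. Over the EGF receptor list 9 of 19 were below both controls, or 47.4% against 37.2% of all genes, with medians of -0.07 and -0.12. Over 24 genes of the PI3K, AKT and mTOR pathway the median was -0.08 from nc and 0.00 from siControl.

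Housekeeping lists lay at the background. The median of 55 cytosolic ribosomal protein genes was -0.05 from nc and 0.02 from siControl, and that of 45 subunits of oxidative phosphorylation -0.04 and 0.02. The second list's median from nc turned to 0 after quantile normalization. The medians of the small RNA machinery, the redox genes and the desmosome genes, each -0.03 from nc, turned positive after both further scalings. DICER1, which cuts microRNA precursors, was at 10.63 with miR-29b and 11.15 with siTET2, against 10.44 with nc and 10.68 with siControl.

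**Figure D5:**
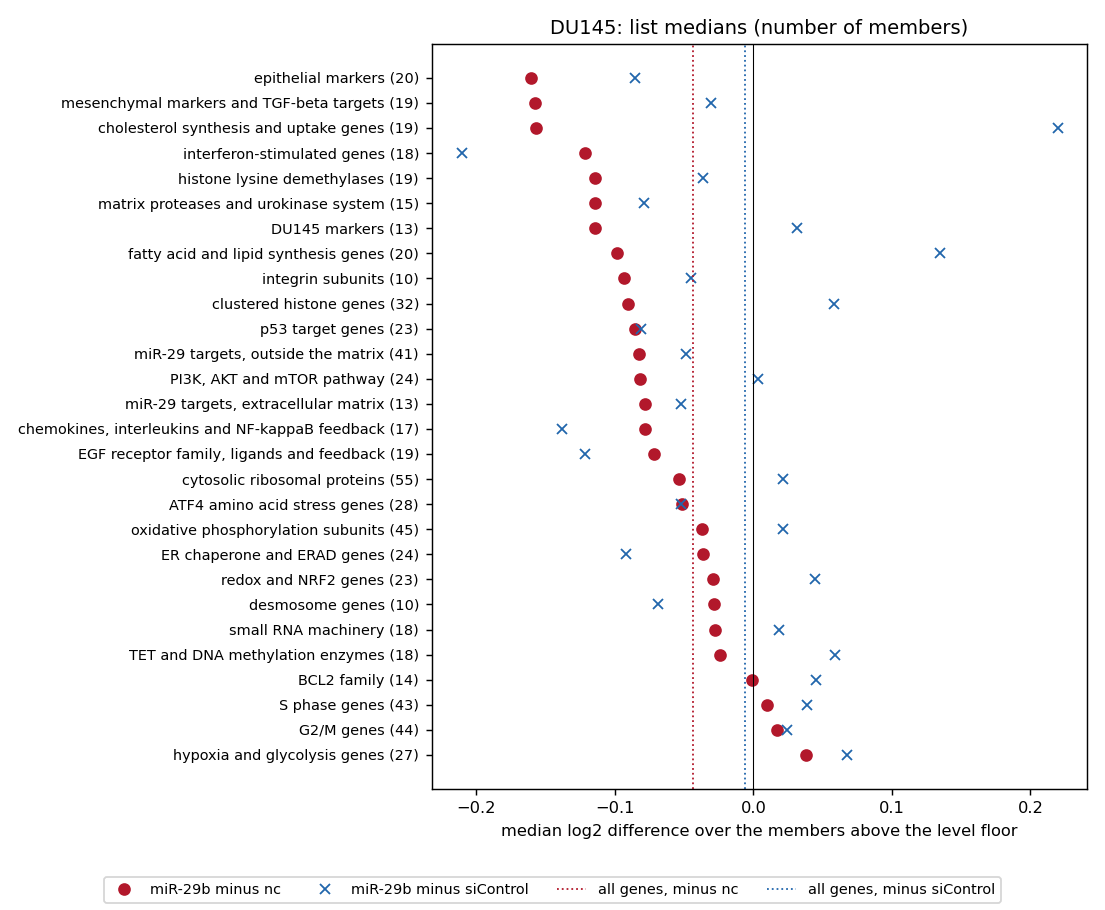
Median log2 difference (x axis) of the members above the floor for each list with 5 or more such members, the number of members in brackets. Circles are DU145 miR-29b minus nc, crosses miR-29b minus siControl, and the dotted lines the medians of all genes (-0.04 and -0.01). Interferon-stimulated genes are farthest left against siControl (-0.21), epithelial markers are farthest left against nc (-0.16), and cholesterol genes lie on opposite sides against nc (-0.16) and siControl (0.22).

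Over the 8280 genes that passed the floor in DU145 and in LNCaP alike, the difference of miR-29b from nc in DU145 had a Pearson correlation of 0.09 and a Spearman correlation of 0.13 with that in LNCaP, given as a description across genes. At least 0.3 lower than nc were 178 genes in DU145 (2.15%) and 272 in LNCaP (3.29%), and 17 were in both, or 9.55% of the DU145 genes and 6.25% of the LNCaP genes. At least 0.3 higher were 119 genes in DU145 (1.44%) and 568 in LNCaP (6.86%), and 3 were in both, or 2.52% and 0.528%. At 1.5-fold LNCaP had 57 genes higher (0.604%) and 23 lower (0.244%), and among the 8280 genes none passed 1.5-fold in the same direction in both lines.

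The 17 genes lower in both lines, named after their values were seen where no rule above covers them, included 3 known miR-29 targets. These were MMP15, at -0.31 in DU145 and -0.79 in LNCaP, NKIRAS2, at -0.31 and -0.55, and NREP, at -0.34 and -0.35. Among the 9395 genes above the DU145 floor the 2 target lists had 13 and 41 members, and their share of the 8280 genes was not counted. Against siControl in DU145, NKIRAS2 differed by -0.14 and NREP by 0.10. Regulators of apoptosis were BAK1, at -0.36 and -0.62, and CASP9, the initiator caspase of the mitochondrial pathway, at -0.32 and -0.38. TNFAIP1, an adaptor of cullin-3, was at 10.38 with miR-29b and 10.88 with siTET2 in DU145, against 10.76 with nc and 10.41 with siControl. SUFU, the inhibitor of Hedgehog signalling, differed by -0.39 in DU145 and -0.37 in LNCaP. JARID2, a partner of the Polycomb complex PRC2, differed by -0.31 and -0.40. In DU145 the values of KDM7A, JARID2 and LAMTOR3, a late endosomal adaptor of mTORC1, were also more than 0.25 below siControl. For MMP15, LRIG1 and CASP9 the difference from siControl was -0.00, 0.01 and -0.01.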

How the data were processed

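RNA of each group was hybridised to 1 Affymetrix whole-transcript array. The deposited table holds log2 values for 33297 probe sets on 8 arrays, made with Affymetrix Expression Console and RMA per the submitters' processing notes. RMA subtracts background, quantile normalizes and summarises probes. Which arrays were normalized together is not given in the sources used here. The precision is limited by 1 array per group.

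Of the probe sets, 19460 had 1 gene symbol, 1754 several and 12083 none listed. Of those with 1 symbol, 19429 matched RefSeq. For the 769 of 18417 genes with several probe sets, the one with the highest mean over the arrays was used. Differences between arrays were computed in Python 3.11.15 with pandas 2.3.3, numpy 2.4.6 and statsmodels 0.14.6 (loess) and checked on simulated data. With 1 array per group no test was run. Alternatives were siControl or the mean of both controls as the control, no floor or a stricter one, centring, quantile normalization, loess on level, and the mean of a gene's probe sets.

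Named genes are the 15 coding genes at each end against nc, the 10 farthest outside both controls on each side, all known targets above the floor, the TET and DNMT genes and up to 4 members of each other list with the largest difference. The comparison and the 32 lists were chosen with earlier results of these data known. Seed matches in 3′ untranslated regions were not analysed here.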

Additional observations from a re-analysis of the deposited data

Results flagged for a closer look

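Some differences from nc had opposite signs in the 2 lines, each resting on 1 array per group, and the difference between lines was not tested. The median of the interferon-stimulated genes was -0.12 in DU145 and 0.49 in LNCaP, each over the members above that line's floor. Within that list DTX3L was at -0.30 in DU145 and 1.13 in LNCaP, and IFI35 at -0.36 and 0.38. CCL20 was at -0.48 in DU145 and 0.91 in LNCaP. Among the genes farthest from nc, PLEKHA3 was at -0.59 in DU145 and 0.45 in LNCaP, and PTPRCAP at 0.53 and -0.36. Among those farthest below both controls, MOSPD1 was at -0.50 and 0.39, and ZNF43 at -0.40 and 0.46. PLEKHA3, ZNF43 and DTX3L passed the DU145 floor through nc only, and PTPRCAP through the miR-29b array only. For these genes the filter in part fixed the DU145 direction.

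Outside the named genes, 13837 probe sets have no single gene symbol and 3978 of these passed the floor. Of them 1 was at least 2-fold above both DU145 controls and 2 at least 2-fold below.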

How the results depend on the processing

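No paired analysis was possible because each group has 1 array and the replicate number only names it. For the same reason no array could be left out. Of 40 single genes followed through 8 alternatives, 32 values moved by more than 0.16, 244 did not, and none changed sign. Genes chosen for lying outside both controls could not change sign with siControl or the mean of both as the control. A change of floor leaves a gene's value as it is. Genes under a floor gave no value there, so the stricter floor kept 3 of the 40, and PLCD1, ZBTB3 and CYP27A1 dropped out with siControl. With siControl as the control, 28 genes passed 1.5-fold lower, while 1 passed 2-fold higher and 4 passed 2-fold lower, and the interferon median was -0.28, over the members that pass a floor on miR-29b and siControl. With the mean of both controls 1 gene was at least 2-fold lower. The cholesterol median turned to 0.224 with siControl and 0.0646 with the mean of both, and the DU145 marker median to 0.0315 with siControl. With no floor, 103 genes passed 1.5-fold on the higher side and 35 on the lower, 1 and 2 passed 2-fold, 573 lay above and 218 below both controls, and the matrix target median was 0.0636. With a floor at the 75th percentile, 1 gene on each side passed 1.5-fold, and 2 lay above and 8 below both controls. Fewer genes were compared there, and differences from nc also spread less at high level. Their SD was 0.17 in level group 6 of 10 and 0.10 in group 10. After quantile normalization the counts at 1.5-fold were 11 and 2 with 25 below and 70 above both, and after loess 11 and 2 with 27 and 62. The causes of these shifts were not tested.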
